A study of Mus musculus with 8 samples.

Results

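Collagen genes were followed across 7 sorted populations of mouse bone marrow stromal cells. The 42 genes were chosen by symbol from a list of collagens, and they are 42 of the 49315 genes in the count table. Col6a4 and Col26a1 were not on the list. By the structure of their proteins, 11 code for fibrillar chains, 9 for network-forming chains, 9 for FACIT chains, which sit on the surface of fibrils, and 13 for other collagens. Collagens are mostly secreted proteins whose chains wind into a helix, and each gene codes for 1 chain of a molecule. Type I collagen is the main fibre of bone and tendon, types II, IX and XI build the fibrils of cartilage, type X is laid down by hypertrophic chondrocytes, type III is found in loose connective tissue and vessel walls, and type IV forms the sheet of basement membranes. In bone marrow, these chains come mainly from stromal cells, osteoblasts and chondrocytes rather than blood cells.

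All 8 libraries came from wild-type mice labelled C57BL/6J, with the bone marrow of animals 6 weeks after birth as their labelled source. No treatment or transgene was given on the labels. The populations, named cluster 1 to cluster 7, were defined by single-cell RNA-seq of the Sca-1 and PDGFR-alpha fraction and were then isolated by flow cytometry with combinations of CD24, CD39, CD54, Sca-1 and Ly-6C, after cells with CD31, CD45 or TER119 were gated out. The input library is labelled as bone marrow input cells, and its own gate is not given in the sources used here. Each population had 1 library, so that no difference below has a replicate check and no test was made, and it is not stated how many mice were pooled. Total counts were 24205863, 25349917, 27102715, 32549319, 12833648, 31669132 and 33238133 in clusters 1 to 7, in that order, and 20162876 in the input. Intervals given with values cover counting error only.

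Before collagen genes are described, the libraries were set against marker genes of several cell types. Among them are blood and endothelial cells, which the gates on CD45, TER119 and CD31 should have removed from the sorted libraries. Levels below are RPKM, the count of a gene scaled to its exon length and to the total count on genes. Of 8 listed mesenchymal stromal genes, 8 were above 2 RPKM in at least 1 sorted library, and their levels summed to 161, 74.8, 93.7, 272, 102, 94.03 and 211 RPKM in clusters 1 to 7, in that order, and 115 RPKM in the input. Cxcl12, a chemokine of the marrow niche, was the most abundant of them and ranged from 5.04 to 139 RPKM. Pdgfra, which codes for one of the receptors used to gate the starting cells, ranged from 4.37 to 28.1 RPKM. Of the others, Pdgfrb ranged from 7.18 to 64.5, Vcam1 from 3.19 to 26.7, Prrx1 from 2.08 to 13.1, Nt5e from 5.36 to 65.7 and Thy1 from 0.105 to 14.4 RPKM. All 8 were above 2 RPKM in each sorted library but for Thy1 in cluster 6.

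Neutrophil granule genes were high in each library. Their 7 genes all passed 2 RPKM and summed to 14085, 15910.4, 10805, 16955, 25463, 15072 and 28706 RPKM in clusters 1 to 7 and 42331 RPKM in the input, with S100a9 as the most abundant. S100a8 ranged from 3132 to 7878, Ngp from 1196 to 6416, Ltf from 141 to 1181, Elane from 94.2 to 478 and Mpo from 67.3 to 394 RPKM over the sorted libraries. Ptprc, the gene of CD45, stood at 2.92, 2.58, 1.69, 2.76, 1.80, 4.02 and 9.26 RPKM in the sorted libraries and 13.5 RPKM in the input. The 6 pan-haematopoietic genes summed to 176, 177, 116, 220.4, 194, 199 and 424 RPKM and 595 RPKM in the input, led by Coro1a, so that they were highest among sorted libraries in cluster 7. Cd52 ranged from 36.3 to 124, Laptm5 from 23.4 to 69.8 and Vav1 from 3.55 to 17.2 RPKM. B cell genes, of which 5 of 6 passed, were led by Cd79b and summed to 67.4, 73.8, 32.8, 59.1, 51.2, 81.1 and 110.0 RPKM and 258 RPKM in the input, with Cd79a from 9.07 to 39.9 RPKM. Erythroid genes, of which 6 of 6 passed, were led by Hba-a1 and summed to 14562, 13322, 7328, 2259.7, 68504, 1591 and 7411 RPKM and 689 RPKM in the input. They were highest in cluster 5, and the near-identical globin copies Hba-a1 and Hba-a2, or Hbb-bs and Hbb-bt, can share reads. Alas2 ranged from 8.62 to 117 RPKM. Of the endothelial genes, 3 of 7 were above 2 RPKM, with sums of 12.2, 7.07, 8.59, 4.98, 11.1, 4.61 and 8.14 RPKM and 15.9 RPKM in the input, and Pecam1 as the most abundant. Tek ranged from 0.328 to 5.31 and Erg from 0.479 to 1.97 RPKM. Of the Schwann and nerve genes 1 of 5 passed, Ncam1, and Sox10 and Cdh19 stayed below 2 RPKM. The 7 pericyte and smooth muscle genes, 6 of which passed, were led by Acta2, with Cspg4 from 4.10 to 43.04, Rgs5 from 1.03 to 16.5, Tagln from 0.270 to 5.65 and Myh11 from 0.186 to 5.76 RPKM, and summed to 103, 78.1, 43.7, 64.5, 29.9, 50.95 and 110.4 RPKM and 30.5 RPKM in the input.

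Cluster 5 stood apart in its makeup of counts. It had the fewest counts, and 34.8% of them fell on Rn18s-rs5, which is named as an 18S ribosomal RNA gene, and on 2 other loci, mmu-mir-689-2 and Lars2. The corresponding share was 10.4% in cluster 2 and between 0.188% and 1.91% in the other libraries. Haemoglobin genes took 5.21% of counts in cluster 5. A level relative to the total is lowered by such counts. Without these loci in the total, each RPKM of a gene would be 1.53 times the value printed for cluster 5, 1.12 times that for cluster 2 and at most 1.02 times that for any other library. Levels and orders of libraries are by total counts unless another scaling is named. The collagen share and some counts of calls are given without the loci as well. In bulk libraries, fewer cells of a type and less RNA per cell cannot be told apart.

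Collagen transcripts were a large part of the RNA of each sorted population. The 42 genes held 28.1% (Wilson 95% interval 28.06 to 28.1%) of all counts on genes in cluster 6, the highest share. They held 14.2% (Wilson 95% interval 14.18 to 14.2%) in cluster 3, 13.5% (Wilson 95% interval 13.49 to 13.52%) in cluster 2 and 11.03% (Wilson 95% interval 11.02 to 11.05%) in cluster 1. Lower shares were found in cluster 4 with 9.90% (Wilson 95% interval 9.893 to 9.914%), cluster 7 with 9.05% (Wilson 95% interval 9.04 to 9.059%) and cluster 5 with 7.15% (Wilson 95% interval 7.137 to 7.165%). The input held 3.02% (Wilson 95% interval 3.013 to 3.027%), below each sorted library. Without Rn18s-rs5, mmu-mir-689-2 and Lars2 in the total, the share of cluster 5 was 10.97%, above those of clusters 4 and 7, and cluster 2 moved above cluster 3. Without mitochondrially encoded and haemoglobin genes as well, the share of cluster 5 was 12.6%, above that of cluster 1 with 11.5%.

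**Figure D1:**
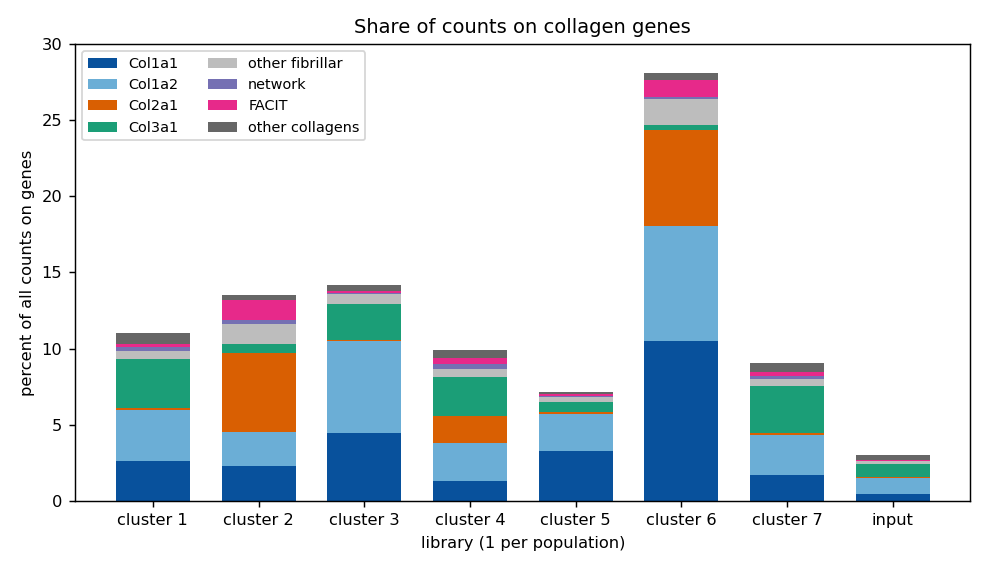
Stacked bars of the percent of all counts on genes held by collagen genes in each of the 8 libraries, split into Col1a1, Col1a2, Col2a1, Col3a1, the other fibrillar genes and the network, FACIT and other classes. The bar of cluster 6 reaches 28.1% and that of the input 3.02%, and Col2a1 fills a large part of the bar in clusters 2, 4 and 6.

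Fibrillar genes filled most of this share, from 2.58% of all counts in the input to 26.4% in cluster 6. The libraries differed in which fibrillar gene led. By RPKM, Col1a1 was the most abundant member in clusters 1, 3, 5 and 6, Col2a1 in clusters 2 and 4, and Col3a1 in cluster 7 and in the input. The leading gene alone made up 57.5% of the summed collagen RPKM in cluster 5 but 24.7% in cluster 4. FACIT genes made up 16.1% of the summed collagen RPKM in cluster 2 and 0.783% in cluster 3, the highest and lowest among the sorted libraries. Other collagens, chiefly type VI, made up 16.1% in the input and 2.05% in cluster 6.

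Of 42 members, 34 were above 2 RPKM in at least 1 sorted library, 25 of them in each of the 7. The number above 2 RPKM in a library was 31 in clusters 1, 4 and 7, 30 in cluster 3, 29 in clusters 2 and 5, 27 in cluster 6 and 30 in the input. Col14a1, Col18a1 and Col13a1 were above 2 RPKM in 6 sorted libraries, Col24a1 and Col4a5 in 4, Col6a6 in 3, Col6a5 in 2, and Col4a4 and Col4a6 in 1. The 8 members that passed in none were Col4a3, Col7a1, Col17a1, Col19a1, Col20a1, Col23a1, Col25a1 and Col28a1.

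**Figure D2:**
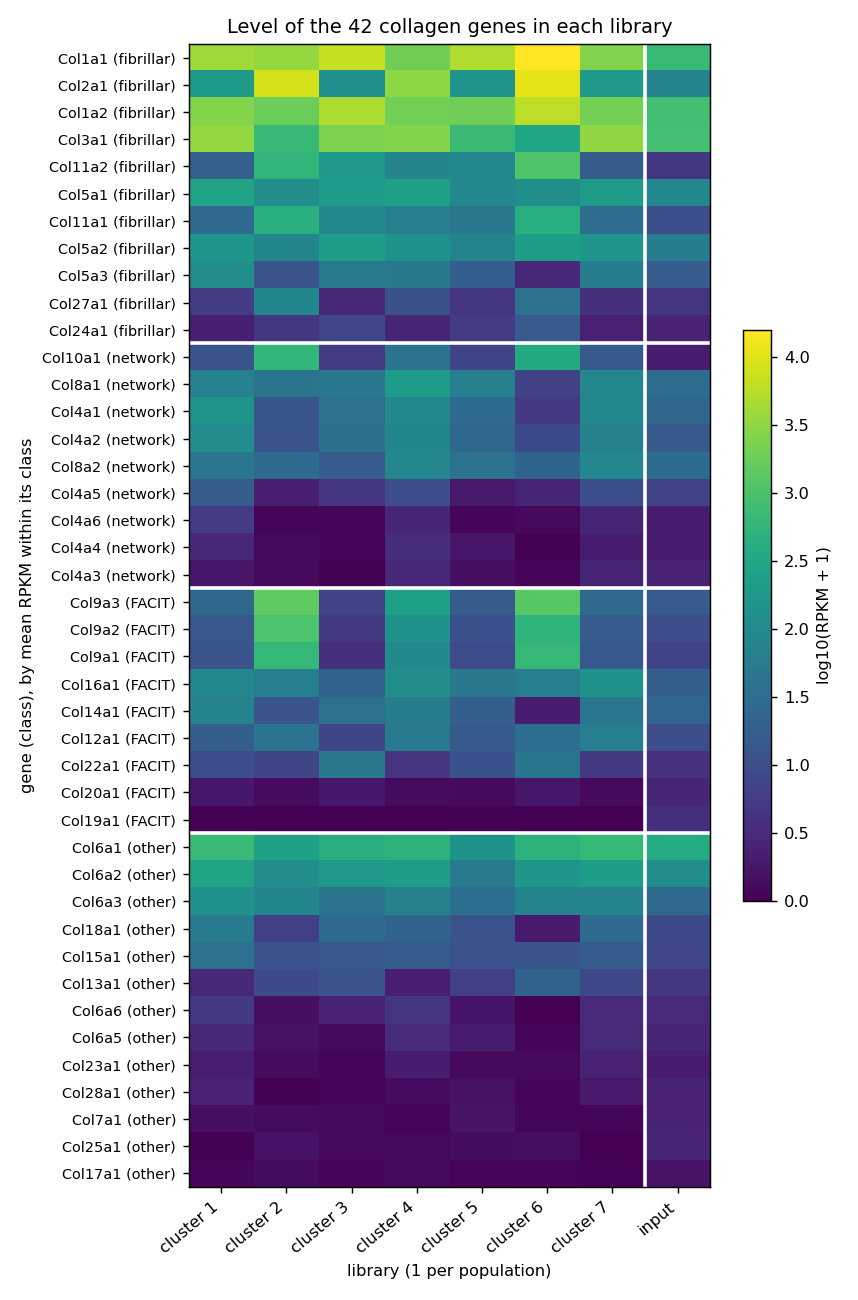
Heat map of log10(RPKM + 1) for the 42 collagen genes (rows, by class and then by mean level) in the 8 libraries (columns). Col2a1, the type IX genes and Col10a1 are bright in clusters 2 and 6 and of middle brightness in cluster 4, Col1a1 peaks at 15952 RPKM in cluster 6, and the lowest rows of the network, FACIT and other classes are dark in each sorted library.

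The members that passed spread widely. Between the highest and lowest sorted library, 34 of 34 differed by more than 2-fold in RPKM + 1, against 70.6% of the 12360 genes that passed the same filter. The median fold between highest and lowest was 9.34 for the collagen genes and 2.39 for all genes. A difference above 10-fold was seen in 16 of 34 collagen genes and 3.35% of all genes. The members that did not reach 2 RPKM were not part of these counts. The filter also favours genes that are high in only 1 library, so the counts describe the passing genes alone. The added 1 limits the fold that a gene at a low level can reach. Collagen genes and all genes were not matched for level, so these folds are not compared at like levels. Adjacent libraries in the order of a gene mostly differed by more than counting error, with an interval that included 1 in 15 of 198 adjacent pairs.

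Type I collagen was highest in cluster 6. Col1a1 (chr11:94936224-94953042, GRCm38, as all positions below) codes for the alpha 1 chain, and its level was 3979, 3435, 6809.5, 1962, 5004, 15952 and 2595 RPKM in clusters 1 to 7, in that order, and 691 RPKM in the input. Cluster 6 was 2.34-fold (95% counting interval 2.34 to 2.35) above cluster 3, the next library by total counts and with TMM factors, and 8.13-fold (95% counting interval 8.10 to 8.16) above cluster 4, the lowest sorted library. With DESeq2 factors the next library was cluster 5, at 7092 RPKM against 6944 RPKM in cluster 3, and without the 3 loci in the total it was also cluster 5, at 7678 RPKM against 6919 RPKM. Col1a2 (chr6:4504814-4541544), the gene of the partner chain, was at 2690.2, 1819, 4848, 1998, 1951, 6087 and 2116 RPKM and 846 RPKM in the input. It was again highest in clusters 6 and 3, and by total counts clusters 2, 4, 5 and 7 lay below cluster 1. With TMM factors cluster 5 was above cluster 1, at 2637 RPKM against 2436 RPKM, and it was also above cluster 1 with DESeq2 factors and without the 3 loci. The input was below each sorted library for both genes.

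Likeness between members was measured over the 7 sorted libraries as Pearson's r between their values of log2(RPKM + 1). Col22a1, a FACIT chain of tissue junctions, was the member most like both type I genes, with r of 0.914 for Col1a1 and 0.911 for Col1a2. Its level was 8.96, 6.61, 47.8, 3.29, 10.7, 42.8 and 4.12 RPKM and 3.02 RPKM in the input, so that clusters 3 and 6 stood above the rest. Cluster 3 was highest by total counts but cluster 6 with TMM or DESeq2 factors. Col24a1, a fibrillar chain found in developing bone, was most like Col1a1, with r of 0.912, and had a level of 1.35, 3.84, 6.74, 1.76, 4.44, 15.4 and 1.46 RPKM and 1.63 RPKM in the input. Col13a1, a transmembrane collagen, stood at 2.05, 7.61, 11.9, 1.25, 5.31, 21.1 and 7.01 RPKM and 3.65 RPKM in the input, with cluster 6 highest and cluster 4 lowest, and was most like Col24a1, with r of 0.840. These values are over 7 libraries that share the scale of their totals and serve as description.

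The summed level of osteoblast markers was also highest in clusters 3 and 6, led by Bglap in both. Of 10 listed genes, 9 passed 2 RPKM, and their levels summed to 878, 7632, 25991, 2472, 9592, 25523 and 2804 RPKM in clusters 1 to 7 and 976 RPKM in the input. Bglap, the gene of osteocalcin, was the most abundant with 254, 3176, 14020.2, 190.3, 5097, 11032 and 276 RPKM, and reads can be shared with its near copy Bglap2. Without Bglap, the sums were 624, 4456, 11971, 2282, 4494, 14491 and 2529 RPKM. Dmp1, a marker of late osteoblasts and osteocytes, was at 3.51, 35.8, 203, 9.95, 38.2, 415 and 10.7 RPKM, and Ibsp, a bone matrix protein, at 197, 715, 446, 676, 219.6, 3192 and 740.4 RPKM, so that cluster 3 was below clusters 2, 4, 6 and 7 in Ibsp. Over the sorted libraries, Spp1 ranged from 194 to 2681, Alpl from 26.5 to 404, Sp7 from 2.27 to 38.6 and Phex from 0.394 to 11.5 RPKM, each highest in cluster 6. Mepe was below 2 RPKM in each sorted library and under 3 counts in clusters 1 and 5. By total counts, cluster 5 had the third-highest level of Col1a1, and its summed osteoblast level was also the third-highest. The part of osteoblast content in the levels of type I collagen was not tested.

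The collagens of cartilage shared a different order, with clusters 2 and 6 high, cluster 4 in between and the other libraries low. Col2a1 (chr15:97975602-98004695), the gene of type II collagen, was at 192, 8611, 134, 3046, 152, 10541 and 185 RPKM in clusters 1 to 7 and 75.8 RPKM in the input. Cluster 6 was 1.22-fold (95% counting interval 1.22 to 1.23) above cluster 2, cluster 2 was 2.83-fold (95% counting interval 2.82 to 2.84) above cluster 4, and cluster 4 was 15.9-fold (95% counting interval 15.7 to 16.1) above cluster 1. The remaining sorted libraries lay between 134 and 192 RPKM. The type IX genes, whose 3 chains form 1 FACIT molecule on type II fibrils, varied even more. Col9a1 (chr1:24177610-24252684) was at 11.9, 630.2, 2.66, 102, 8.52, 634 and 13.5 RPKM and 6.27 RPKM in the input. Col9a2 (chr4:121039385-121055322) was at 12.8, 1028, 4.26, 140.4, 10.4, 542 and 15.9 RPKM and 9.01 RPKM in the input. Col9a3 (chr2:180597790-180622189) was at 24.5, 1488, 6.05, 244, 16.2, 1279 and 26.5 RPKM and 15.2 RPKM in the input, and 6.07% of its exon bases are shared with Tcfl5 on the other strand. The fold of RPKM + 1 between highest and lowest sorted library was 173 for Col9a1, 196 for Col9a2 and 211 for Col9a3, the widest of all members. By total counts, clusters 2 and 6 did not differ beyond counting error in Col9a1. Cluster 6 was higher with TMM factors, at 817 RPKM against 633 RPKM, and cluster 2 without the 3 loci, at 703 RPKM against 643 RPKM. Col9a3 was highest in cluster 2 by total counts and in cluster 6 with TMM or DESeq2 factors.

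Col10a1 (chr10:34389981-34397085) marks hypertrophic chondrocytes. It was at 11.6, 601, 4.33, 38.997, 6.52, 373 and 14.5 RPKM and 1.06 RPKM in the input, and cluster 2 was 1.61-fold (95% counting interval 1.59 to 1.63) above cluster 6 and 15.4-fold (95% counting interval 14.9 to 15.9) above cluster 4. The order of these libraries was thus the reverse of that in Col2a1 for clusters 2 and 6. Col27a1, a fibrillar chain of cartilage, was also highest in cluster 2, with 4.75, 84.2, 2.07, 9.85, 3.62, 36.9 and 2.81 RPKM and 3.24 RPKM in the input. Both genes kept cluster 2 as their highest library with TMM and DESeq2 factors.

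The type XI chains, which sit inside type II fibrils, departed from this order in clusters 3 and 5. Col11a1 (chr3:114030540-114220718) was at 26.6, 467, 93.5, 60.7, 48.1, 445 and 31.04 RPKM and 9.34 RPKM in the input. Col11a2 (chr17:34039437-34066685) was at 18.4, 575, 186, 79.6, 88.2, 1108 and 16.5 RPKM and 3.67 RPKM in the input. In both, cluster 3 stood above cluster 4, by 1.54-fold (95% counting interval 1.51 to 1.57) for Col11a1, although Col2a1 and Col9a1 to Col9a3 were lowest in cluster 3. Cluster 5 also stood above cluster 4 in Col11a2 by total counts, and in Col11a1 with TMM factors, at 65.0 RPKM against 62.3 RPKM. Cluster 6 was 1.93-fold (95% counting interval 1.91 to 1.94) above cluster 2 in Col11a2, while Col11a1 was nearly level between them, with cluster 2 higher by total counts and cluster 6 with TMM or DESeq2 factors.

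**Figure D3:**
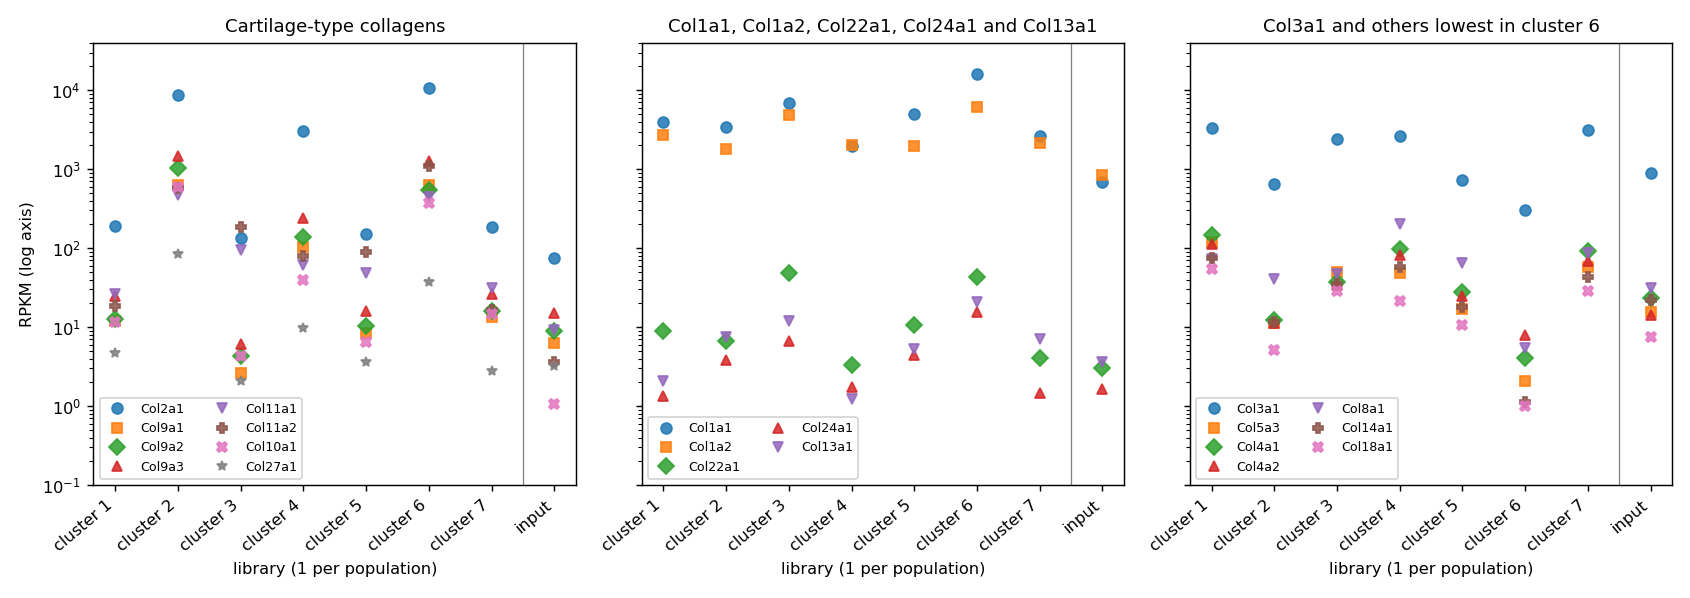
RPKM on a log axis for 3 sets of collagen genes in each of the 8 libraries, grouped after their values were seen. In the first panel points lie highest in clusters 2 and 6 with cluster 4 between, in the second Col1a1 and Col22a1 lie highest in clusters 3 and 6, and in the third each gene is lowest in cluster 6, down to 0.994 RPKM for Col18a1.

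Chondrocyte markers had the same high libraries as these collagens. Of 10 listed genes, 10 passed 2 RPKM, and they summed to 959, 6887, 3495, 4053, 659.9, 6507 and 1783 RPKM in clusters 1 to 7 and 1434 RPKM in the input, led by Comp. Without Comp, the sums were 639, 4873, 2576, 1920, 232, 3773 and 457 RPKM, so that cluster 3 stood above cluster 4. Comp and Prg4, which tendon and joint lining also express, were high elsewhere too, and Prg4 was highest in cluster 3 with 2483 RPKM. Acan, the gene of aggrecan, was at 8.53, 287, 9.34, 49.7, 7.19, 349 and 12.8 RPKM, Matn1 at 1.69, 101, 0.258, 3.75, 0.195, 90.5 and 0.797 RPKM and Cnmd at 14.3, 919.8, 4.48, 289, 14.8, 1164 and 28.7 RPKM. Each had clusters 2 and 6 on top and cluster 4 next, as did Matn3 from 1.57 to 677, Snorc from 10.2 to 1705, Hapln1 from 5.66 to 470.2, Ucma from 4.11 to 384 and Sox9 from 29.4 to 164 RPKM. No marker of this list was under 3 counts in any sorted library. The part of chondrocyte content in the levels of cartilage collagens was not tested.

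For 34 of 42 members a promoter window was listed in RefSeq for GRCm38.p6. The 250 bases before the RefSeq start of 4 of them are shown, which for Col11a2 lies upstream of the start in the count table, since Col10a1, Col9a1 and Col11a2 have their highest levels in clusters 2 and 6 and Col3a1 has its lowest levels in the same libraries. Each is read 5′ to 3′ on the strand of the gene, and capitals mark matches to the TATA box TATAAA or the GC box GGGCGG on either strand. No base shown lies in an annotated exon of the count table.
Col10a1: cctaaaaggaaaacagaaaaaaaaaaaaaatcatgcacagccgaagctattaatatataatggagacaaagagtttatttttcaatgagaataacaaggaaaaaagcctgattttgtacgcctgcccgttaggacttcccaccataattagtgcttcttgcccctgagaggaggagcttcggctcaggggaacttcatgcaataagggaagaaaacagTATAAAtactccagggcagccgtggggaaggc
Col9a1: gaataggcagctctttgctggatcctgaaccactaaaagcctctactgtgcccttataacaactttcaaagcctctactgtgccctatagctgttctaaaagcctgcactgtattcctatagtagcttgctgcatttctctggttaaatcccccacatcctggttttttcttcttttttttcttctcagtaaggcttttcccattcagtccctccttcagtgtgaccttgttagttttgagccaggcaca
Col11a2: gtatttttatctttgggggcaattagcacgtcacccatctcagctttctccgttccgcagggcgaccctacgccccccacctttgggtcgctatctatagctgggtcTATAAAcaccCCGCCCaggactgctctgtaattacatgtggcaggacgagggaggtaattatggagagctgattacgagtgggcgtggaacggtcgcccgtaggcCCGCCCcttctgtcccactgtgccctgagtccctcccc
Col3a1: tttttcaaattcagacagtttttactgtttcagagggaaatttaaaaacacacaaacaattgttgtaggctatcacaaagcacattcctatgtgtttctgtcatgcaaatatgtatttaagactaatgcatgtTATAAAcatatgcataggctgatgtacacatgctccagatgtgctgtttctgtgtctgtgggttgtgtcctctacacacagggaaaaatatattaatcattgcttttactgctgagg
The windows are at chr10:34389731-34389980, chr1:24177360-24177609, chr17:34038888-34039137 and chr1:45311288-45311537, all on the plus strand. In Col10a1, TATAAA began 32 bases before the start. In Col3a1 it began 117 bases and in Col11a2 143 bases before the start, and Col11a2 also held GGGCGG on the opposite strand from 133 and 38 bases before it. Neither motif, nor CCAAT, was in the window shown for Col9a1, which is the first of 2 listed for this gene. Over the listed members, TATAAA was found in 5 of 34 windows against 12.4% of all 32851 windows, CCAAT in 11 of 34 against 33.8%, and GGGCGG in 20 of 34 against 32.7%. The median GC content was 60.0% in the windows of members and 52.4% in all windows. For members only the first listed window of each gene was used, whereas all windows can include several of a gene. Matches of letters are a description of the sequence.

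Type III collagen was lowest in clusters 6 and 2. Col3a1 (chr1:45311538-45349706), a fibrillar gene of soft connective tissue, was at 3299.7, 658, 2393, 2603, 731, 302 and 3181 RPKM in clusters 1 to 7 and 884 RPKM in the input. Clusters 1 and 7 were within 1.04-fold (95% counting interval 1.03 to 1.04) of each other, and cluster 1 was 10.9-fold (95% counting interval 10.9 to 11.004) above cluster 6, the lowest library. Cluster 1 led by total counts and cluster 7 with TMM or DESeq2 factors. An overlapping gene without a symbol shares 1.44% of its exon bases on the same strand and had 0 counts in each library. Col5a3, a chain of type V collagen, which sets the width of type I and III fibrils, was the member most like Col3a1, with r of 0.972. It was at 119, 11.3, 50.01, 48.8, 16.9, 2.09 and 58.1 RPKM and 15.8 RPKM in the input, so that cluster 6 fell 57.3-fold (95% counting interval 52.1 to 63.003) short of cluster 1.

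The other type V chains varied less. Col5a1 was at 284, 115, 201, 248, 86.7, 121 and 206 RPKM and 91.4 RPKM in the input, with a fold between highest and lowest sorted library of 3.25. Its highest library was cluster 1 by total counts and with TMM factors and cluster 4 with DESeq2 factors. Col5a2 was at 163, 84.4, 216, 146, 76.5, 222 and 162 RPKM and 57.6 RPKM in the input, highest in clusters 6 and 3 like type I collagen. Its lowest library was cluster 5, or cluster 2 with TMM or DESeq2 factors, and the same change was seen in Col5a1.

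Fibroblast and tendon markers other than Fmod were lowest in cluster 6 and highest in cluster 1, as was Col3a1 by total counts, with Mkx lowest in cluster 3. All 8 of 8 passed 2 RPKM, with sums of 1731, 842, 1100.3, 1738, 554, 1477 and 1785 RPKM in clusters 1 to 7 and 1679 RPKM in the input. Fmod, a small proteoglycan that binds collagen fibrils, was the most abundant and was highest in cluster 6, whereas the sums without it were 996, 186, 532, 700.5, 199, 23.7 and 500.3 RPKM and lowest in cluster 6. Dpt, the gene of dermatopontin, was at 359, 22.6, 179.8, 269.9, 48.2, 4.52 and 144 RPKM and Clec3b at 205, 33.01, 187, 105, 18.8, 0.509 and 68.8 RPKM. Tnmd ranged from 5.34 to 229, Cd34 from 1.37 to 122, Scx from 7.45 to 41.3 and Pi16 from 1.69 to 29.99 RPKM. The part of fibroblast content in the levels of Col3a1 was not tested.

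Of the network-forming chains, the main type IV chains were highest in cluster 1 and lowest in clusters 2 and 6. Col4a1 (chr8:11198423-11312826) was at 147, 12.5, 37.5, 98.3, 28.01, 4.11 and 91.2 RPKM and 23.4 RPKM in the input. Col4a2 (chr8:11312805-11449287) was at 113, 11.4, 34.1, 82.6, 24.99, 7.94 and 68.1 RPKM and 14.4 RPKM in the input. These chains build the common form of type IV collagen, and cluster 1 was 35.8-fold (95% counting interval 33.6 to 38.2) above cluster 6 in Col4a1. Col4a5, the most abundant of the minor chains, was at 16.1, 1.29, 3.61, 9.03, 0.939, 1.73 and 9.08 RPKM and 6.05 RPKM in the input. Clusters 4 and 7 did not differ in it beyond counting error by total counts. Col4a6 ranged from 0.134 to 4.53 RPKM over the sorted libraries with its highest value in cluster 1, Col4a4 from 0.0595 to 2.47 RPKM with its highest in cluster 4, and Col4a3 from 0.0629 to 1.89 RPKM. Cells with CD31, an endothelial marker, were gated out of the sort. By total counts, the summed endothelial level was highest in cluster 1 with 12.2 RPKM, where Col4a1 was highest, and was 4.98 RPKM in cluster 4, where Col4a1 was second-highest. With TMM factors it was highest in cluster 5, at 14.9 RPKM against 11.06 RPKM in cluster 1, and cluster 5 was also highest with DESeq2 factors and without the 3 loci. Its part in the type IV levels was not tested.

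Type VIII collagen, a short-chain network former, was highest in clusters 4 and 7 by total counts. Col8a1 was at 72.7, 40.2, 47.4, 204, 64.3, 5.45 and 87.7 RPKM and 31.2 RPKM in the input, and cluster 4 was 2.32-fold (95% counting interval 2.28 to 2.37) above cluster 7. With TMM factors the second-highest library of Col8a1 was cluster 5, at 86.9 RPKM against 84.8 RPKM in cluster 7. Col8a2 was at 43.8, 27.99, 15.3, 87.2, 35.6, 21.3 and 87.4 RPKM and 30.2 RPKM in the input. Clusters 4 and 7 did not differ in Col8a2 beyond counting error by total counts, and cluster 4 was the highest with TMM or DESeq2 factors. Col8a1 was lowest in cluster 6 and Col8a2 in cluster 3.

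The FACIT chains outside type IX did not share an order. Col16a1 was at 91.2, 62.8, 20.8, 117, 45.7, 62.04 and 143 RPKM and 17.8 RPKM in the input, highest in cluster 7. Col12a1, which sits on type I fibrils, was at 17.99, 38.2, 6.64, 49.996, 14.2, 31.7 and 60.9 RPKM and 8.79 RPKM in the input, also highest in cluster 7 and lowest in cluster 3. Col14a1, which sits on type I fibrils as well, was at 75.7, 11.6, 35.3, 57.1, 17.96, 1.11 and 43.8 RPKM and 22.2 RPKM in the input. It was thus highest in cluster 1 and lowest in cluster 6, like Col3a1 by total counts, and was most like Col5a3, with r of 0.980. Col20a1 ranged from 0.287 to 0.897 RPKM over the sorted libraries. Col19a1 had 0 to 8 counts in the sorted libraries and 394 in the input, and 0 in cluster 6 allows up to 3.

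Type VI collagen, a beaded filament found around most mesenchymal cells, was present throughout. Col6a1 (chr10:76708792-76726168) was at 677, 257, 423, 524, 141, 511 and 643 RPKM and 378 RPKM in the input. Cluster 1 was highest by total counts and cluster 6 with TMM or DESeq2 factors, and cluster 5 was lowest with each. Col6a2 was at 279.8, 113, 178, 229.9, 52.6, 166 and 228 RPKM and 118 RPKM in the input. Col6a3 was at 136, 85.1, 40.01, 69.5, 33.9, 77.8 and 75.1 RPKM and 27.1 RPKM in the input, and its order placed clusters 2 and 6 behind cluster 1. Its lowest library was cluster 5 by total counts and cluster 3 with TMM or DESeq2 factors. The minor chains Col6a5 and Col6a6 ranged from 0.178 to 2.34 and from 0.0172 to 4.16 RPKM, lowest in cluster 6 in both.

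Of the remaining collagens, Col15a1 and Col18a1 code for basement membrane collagens that carry glycosaminoglycan chains. Col18a1 was at 53.7, 5.21, 28.4, 21.6, 10.7, 0.994 and 29.03 RPKM and 7.49 RPKM in the input, and was most like Col5a3, with r of 0.995. Col15a1 was at 36.5, 11.4, 12.7, 15.5, 10.8, 11.8 and 15.5 RPKM and 6.72 RPKM in the input, highest in cluster 1. By total counts, clusters 4 and 7 did not differ in it beyond counting error, nor did cluster 6 from cluster 2 or cluster 2 from cluster 5. With TMM factors clusters 6 and 5 stood above cluster 2, at 15.3 and 14.6 RPKM against 11.5 RPKM. Col7a1, the anchoring fibril chain of skin, ranged from 0.144 to 0.689 RPKM, and Col17a1, a transmembrane collagen of epithelia, from 0.104 to 0.390 RPKM. Col23a1 ranged from 0.193 to 1.62, Col25a1 from 0.0372 to 0.625 and Col28a1 from 0.0402 to 1.66 RPKM. None of these 5 genes reached 2 RPKM in a sorted library. Olfactory receptor genes, which marrow cells should lack, gave a measure of background, with a 95th percentile between 0.0112 and 0.232 RPKM in the sorted libraries. At most 3 members, in cluster 5, lay at or under that percentile.

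Each sorted library was then compared with the median of the other 6, as the ratio of RPKM + 1, for genes above 2 RPKM in at least 1. A call needed more than 2-fold. These comparisons share libraries, so a gene high in clusters 2 and 6 enters both. The median log2 ratio of all genes was furthest from 0 in 4 libraries, at 0.24, -0.49, -0.25 and 0.18 for clusters 1, 5, 6 and 7.

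In cluster 1, 10 of 34 collagen genes (29.4%) were higher against 5.21% of all genes, and 9 (26.5%) were lower against 1.73%. The higher genes were Col3a1, Col5a3, Col4a1, Col4a2, Col4a5, Col4a6, Col14a1, Col6a6, Col15a1 and Col18a1, and the lower genes included Col2a1, the type IX and XI genes and Col10a1. In cluster 7, 8 (23.5%) were higher against 6.49% and 9 (26.5%) lower against 2.69%. Here Col8a2, Col12a1 and Col16a1 were among the higher genes next to Col3a1 and type IV genes. With TMM factors the higher genes of cluster 7 were 5, without Col3a1, Col4a2 and Col16a1, against 4.43% of all genes, and with DESeq2 factors 4, without Col12a1 as well, against 3.88%. Col3a1 was also not called in cluster 1 with either, nor without the 3 loci in the total. Omission of the cluster 5 library ended the cluster 1 calls of Col3a1 and Col6a6 and added Col4a4. In cluster 4, 14 (41.2%) were higher against 4.47% and 3 (8.82%) lower against 1.47%. This list joined cartilage genes, namely Col2a1, Col27a1, Col10a1 and Col9a1 to Col9a3, with Col4a1, Col4a2, Col4a4, Col4a5, Col4a6, Col8a1, Col8a2 and Col14a1. Col4a4 passed 2 RPKM in cluster 4 alone, as Col4a6 did in cluster 1 alone, so that the filter favoured their calls there. Col27a1 and Col14a1 were not called in cluster 4 with TMM or DESeq2 factors. The lower genes of cluster 4 were Col1a1, Col22a1 and Col13a1.

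In cluster 2, 8 of 34 collagen genes (23.5%) were higher against 8.33% of all genes and 8 (23.5%) lower against 4.73%. All 8 higher genes belong to the cartilage collagens, and the lower genes were Col3a1, Col5a3, Col4a1, Col4a2, Col4a5, Col14a1, Col6a1 and Col18a1. Col6a1 was not called in cluster 2 when Rn18s-rs5, mmu-mir-689-2 and Lars2 were left out of the total. In cluster 6, 13 (38.2%) were higher against 4.47% and 10 (29.4%) lower against 10.5%. The higher genes were the 8 cartilage genes of cluster 2 with Col1a1, Col1a2, Col24a1, Col22a1 and Col13a1, and the same 13 were called with TMM and with DESeq2 factors. In cluster 3, 4 (11.8%) were higher against 3.61%, namely Col1a2, Col11a2, Col24a1 and Col22a1, and 9 (26.5%) lower against 3.31%. Col11a2 was not called in cluster 3 with TMM or DESeq2 factors, and neither Col11a2 nor Col24a1 was called there without the 3 loci in the total. In cluster 5, 0 were higher against 3.79% and 18 (52.9%) lower against 13.5%. The lower count of cluster 5 was 11 with TMM factors and 9 without Rn18s-rs5, mmu-mir-689-2 and Lars2 in the total, against 4.54% and 3.01% of all genes, and each of these was among the 18. Col2a1, Col3a1, Col10a1, Col4a5, Col6a1, Col6a2 and Col9a1 to Col9a3 were the 9 that were lower in each of these settings.

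**Figure D4:**
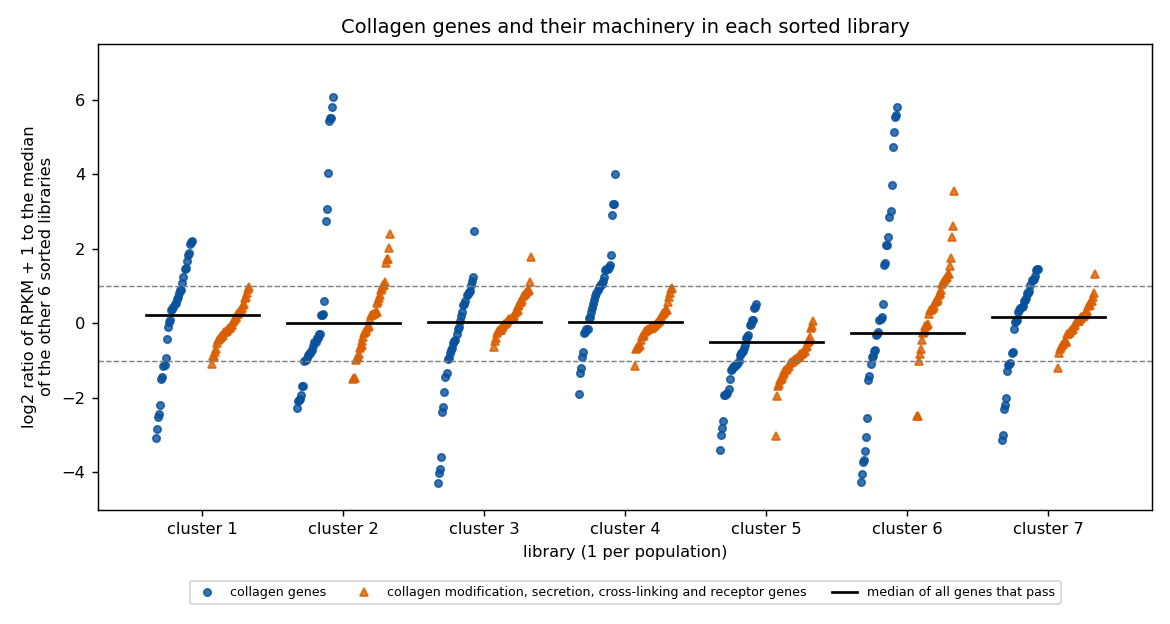
Log2 ratio of RPKM + 1 in each sorted library to the median of the other 6, for the 34 collagen genes (circles) and the 40 genes of collagen modification, secretion, cross-linking and receptors (triangles) that passed 2 RPKM, with the median of all genes as a black line and 2-fold as dashed lines. Collagen genes reach furthest up in clusters 2 and 6, and 18 of 34 lie under the lower dashed line in cluster 5.

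Chains of a molecule did not keep a fixed ratio. Ratios of RPKM depend on the exon length given for each gene, which joins all its transcripts, but their spread over libraries does not. Col1a1 over Col1a2, which form type I collagen together, was lowest in cluster 4, at 0.982 (0.978 to 0.985) with the counting interval in brackets, and 1.23 (1.22 to 1.23) in cluster 7. It was 2.62 (2.62 to 2.63) in cluster 6, where it was highest, and 2.57 (2.55 to 2.58) in cluster 5. In the input it was 0.817 (0.810 to 0.823), below each sorted library. The spread between highest and lowest sorted library was thus 2.67-fold.

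Col6a1 over Col6a2 had the smallest spread of the 13 pairs compared, 1.35-fold, from 2.28 to 3.08. Type IX chains were next, with 1.66-fold for Col9a3 over Col9a2 and 1.91-fold for Col9a1 over Col9a2, although their levels varied more than 100-fold. In both, cluster 6 was the highest and not cluster 2. Col4a1 over Col4a2 was between 1.10 and 1.34 in 6 sorted libraries but 0.517 (0.477 to 0.560) in cluster 6, where Col4a1 was lowest.

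Other pairs spread more widely. Col8a1 over Col8a2 was 0.256 (0.237 to 0.276) in cluster 6 and 3.11 (2.95 to 3.28) in cluster 3, a spread of 12.2-fold. Col5a3 over Col5a1 was 0.0172 (0.0157 to 0.0189) in cluster 6 and 0.421 (0.414 to 0.428) in cluster 1, a spread of 24.4-fold. Col11a1 over Col11a2 had a spread of 4.70-fold, from 0.401 in cluster 6 to 1.89 in cluster 7. The ratio of Col3a1 to Col1a1, which mix in many fibrils without forming 1 molecule, spread most, by 70.1-fold. Col3a1 was above Col1a1 in cluster 4 with 1.33, cluster 7 with 1.23 and the input with 1.28, and far below it in cluster 6 with 0.0189 (0.0188 to 0.0190).

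**Figure D5:**
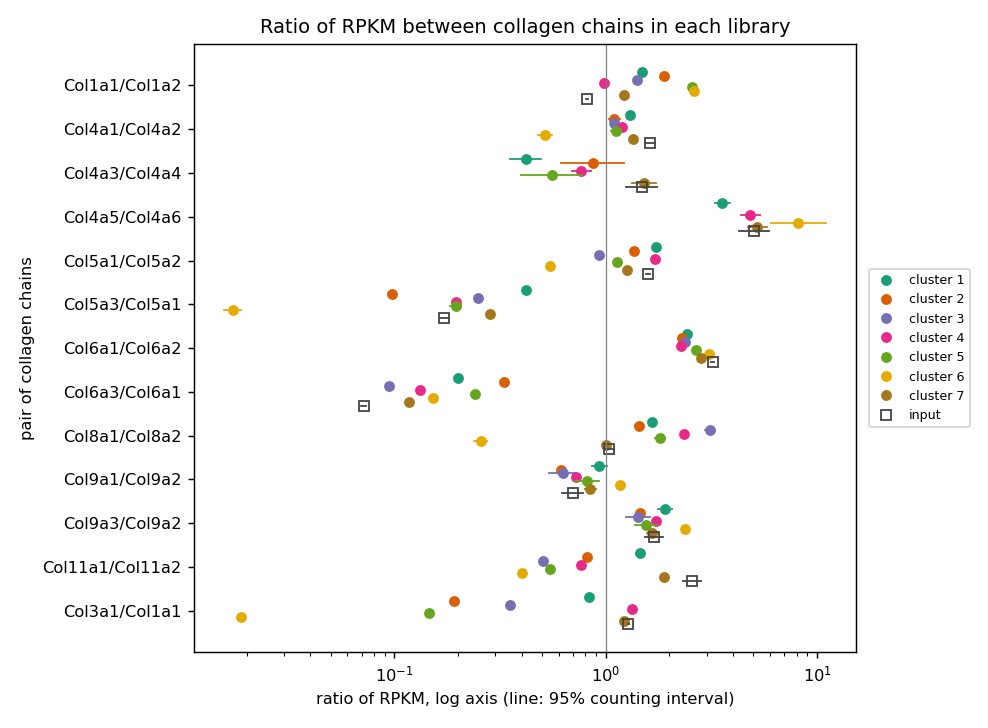
Ratio of RPKM between 13 pairs of collagen chains on a log axis in each library where both had at least 50 counts, with lines for the 95% counting interval, filled circles for sorted libraries and open squares for the input. Col6a1/Col6a2 is tightly grouped with a spread of 1.35-fold, and the point of cluster 6 lies far to the left in Col5a3/Col5a1, Col8a1/Col8a2 and Col3a1/Col1a1.

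Several members are neighbours in the genome, in 7 pairs within 200 kb. Col4a1 and Col4a2 lie head to head on chromosome 8 with their starts 21 bases apart, and their log2 levels had r of 0.989 over the 7 sorted libraries. Col4a5 and Col4a6 lie head to head on chromosome X with starts 1309 bases apart, with r of 0.949, and Col4a3 and Col4a4 on chromosome 1 with starts 72 bases apart, with r of 0.868 at levels of at most 2.47 RPKM. Col6a1 and Col6a2, on the same strand with starts 102538 bases apart, had r of 0.979. Col6a5 and Col6a6, likewise on the same strand, had r of 0.791. For neighbours that lie tail to tail, r was 0.241 for Col3a1 and Col5a2 and -0.784 for Col9a1 and Col19a1, the latter with at most 8 counts in a sorted library. The libraries differ in depth and makeup, and 7 points are few, so these correlations are given as description.

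Among genes that modify, fold, secrete, cross-link or bind collagen, more were called higher in cluster 6 than in any other sorted library. Of 46 listed genes, 40 passed 2 RPKM, and in cluster 6 13 of them were over 2-fold higher and 3 lower than the median of the other sorted libraries, against the same 4.47% and 10.5% of all genes. The higher genes were P4ha2, P3h1, P3h2, P3h4, Plod2, Colgalt2, Serpinh1, Creb3l1, Pcolce2, Adamts14, Lox, Loxl3 and Loxl4, and the lower genes were P4ha3, Loxl1 and Ddr2. In cluster 2, 8 of the 40 were higher against 8.33% of all genes and 3 lower against 4.73%. Cluster 3 had 2 higher against 3.61% and 0 lower against 3.31%, and cluster 7 had 1 of each against 6.49% and 2.69%. In clusters 1 and 4, 0 were higher, against 5.21% and 4.47%, and 1 lower, against 1.73% and 1.47%. In cluster 5, 0 were higher against 3.79% and 19 lower against 13.5%, but 7 were lower with TMM factors against 4.54%, and 4 against 3.01% when Rn18s-rs5, mmu-mir-689-2 and Lars2 were left out of the total. The orders of single genes below are by total counts.

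Among prolyl and lysyl enzymes, P4hb, the shared subunit of prolyl 4-hydroxylases, was the most abundant, with 360.0, 466, 400.4, 442, 168, 602 and 402 RPKM in clusters 1 to 7 and 314 RPKM in the input. Crtap, part of the prolyl 3-hydroxylase complex, ranged from 57.2 to 156 RPKM. Plod2, which hydroxylates lysines of the ends of the chains, was at 24.1, 127, 64.8, 39.7, 30.8, 129.8 and 36.01 RPKM and 35.9 RPKM in the input, so that clusters 2 and 6 stood together above the rest. P3h4 was at 52.1, 114, 78.5, 59.1, 23.3, 123 and 48.5 RPKM with the same leading libraries. Colgalt2, which adds galactose to hydroxylysine, was at 5.56, 23.6, 9.52, 4.61, 1.21, 36.3 and 4.54 RPKM, and P3h2, a prolyl 3-hydroxylase, at 3.05, 10.5, 5.46, 5.96, 1.42, 32.8 and 6.95 RPKM. P4ha3, a catalytic subunit, went the other way and was lowest in cluster 6 with 2.08 RPKM against 23.95 RPKM in cluster 7. P3h1 ranged from 19.5 to 81.99 and P4ha2 from 12.6 to 56.7 RPKM, highest in clusters 2 and 6 respectively.

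Serpinh1, the collagen chaperone HSP47, was at 708, 1200.3, 787, 474, 537, 1564 and 543 RPKM and 338 RPKM in the input. Fkbp10, a prolyl isomerase, ranged from 72.3 to 243 RPKM and Creb3l1, a transcription factor of the secretory pathway, from 28.1 to 81.3 RPKM, both highest in cluster 6. Of propeptide genes, Pcolce, the enhancer of C-proteinase, was lowest in cluster 2 with 91.3 RPKM and highest in cluster 4 with 325 RPKM. Bmp1, the C-proteinase itself, ranged from 40.9 to 128 RPKM with its highest value in cluster 3. Pcolce2 was at 38.5, 131, 136, 39.1, 6.76, 84.97 and 26.5 RPKM, high in clusters 2, 3 and 6.

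Cross-linking enzymes of the lysyl oxidase family divided between the libraries. Lox was at 73.1, 52.9, 134, 77.3, 71.02, 175 and 123 RPKM and 81.4 RPKM in the input. Loxl4 was at 5.05, 38.1, 6.87, 6.77, 3.48, 86.9 and 6.08 RPKM, with clusters 6 and 2 above the rest, as in the cartilage collagens. Loxl1 was at 44.4, 17.1, 22.1, 45.3, 23.99, 3.88 and 28.7 RPKM and lowest in cluster 6, as in Col3a1. Loxl3 ranged from 12.5 to 57.1 RPKM, highest in cluster 6. Of receptors, Itgb1, the integrin beta 1 chain, ranged from 58.5 to 167 RPKM, Mrc2, an uptake receptor for collagen, from 13.98 to 33.99 RPKM, and Ddr2, a kinase bound by fibrillar collagen, from 13.2 to 35.4 RPKM. Itga11, an integrin chain for type I collagen, was at 16.8, 4.997, 14.6, 19.2, 9.05, 14.9 and 38.7 RPKM, highest in cluster 7. Gp6 and Lair1, receptors mostly known from blood cells, and the integrin chain Itga2 did not reach 2 RPKM in a sorted library.

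The input was compared with the median of the 7 sorted libraries over the 19088 genes above 2 RPKM in any of 8 libraries, 35 of them collagen genes. Of these genes, 6728 passed the filter only in the input, and 6283 of the 6728 were called higher there, so the filter itself raised the share of higher genes. Here 17 collagen genes were lower, against 2.89% of all genes, and 1 was higher, against 43.0%. Over the 12360 genes that passed in a sorted library, a set chosen after the data were seen, 17 were lower, against 4.47% of all genes, and 0 higher, against 15.6%. The lower genes were Col1a1, Col1a2, Col2a1, Col3a1, Col5a1, Col5a2, Col5a3, Col11a1, Col11a2, Col4a2, Col8a1, Col10a1, Col12a1, Col16a1, Col22a1, Col6a3 and Col18a1. The 1 higher gene was Col19a1, at 2.84 RPKM in the input and at most 0.0679 RPKM in a sorted library, and it passed the filter only through the input. Olfactory receptor genes had at least 3 counts in 67.8% of cases in the input and in 2.10% to 28.0% in the sorted libraries, and their 95th percentile in the input, 2.75 RPKM, was just below the level of Col19a1. In the input 13 of 42 members lay at or under that percentile. With TMM or DESeq2 factors, which lowered the scale of the input by 0.68 and 0.66 on the log2 scale, 28 collagen genes were lower, against 9.68% and 9.26% of all genes, and 0 higher, against 24.6% and 24.9%. All 17 were among the 28 with either. Of the machinery, 9 of 42 genes were lower against the same 2.89%, and 2 were higher against 43.0%, Itga2 and Lair1, both of which passed only through the input. More of the machinery was lower with TMM or DESeq2 factors, against the same 9.68% and 9.26% of all genes, with the counts given below.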

How the data were processed

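RNA-seq of 7 sorted populations and of input cells was analysed, with 1 library each. According to the Methods, polyA-selected libraries were read in pairs, bases of Phred below 20 and reads under 25 nt were removed, and reads were aligned by TopHat2 within Partek Flow 2.2 to mm9. The authors deposited raw counts per Ensembl gene, with exon lengths, at positions that match GRCm38 (41 of 42 members start within 10 kb of their RefSeq GRCm38.p6 position). The counting tool, its use of strand and of shared reads are not given in the sources used here. On the amount of RNA and the strain name and age of the mice, labels and Methods differ, and the labels were followed.

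RPKM was computed from these counts, with the sum over all genes as total and the deposited exon length. Calls used RPKM + 1, a filter of 2 RPKM and 2-fold. With 1 library a population, no p-value is given. Intervals are 95% Wilson (shares) and exact binomial (ratios). Values in each library are given for the 4 members of highest mean in each class and for others above 5 RPKM that differed over 2-fold. Of each other list the 3 genes of highest mean and those over 4-fold are named, but for a few marker genes that are not reported here. The members and gene lists (5 of machinery, 11 of markers, 1 of collagen-like proteins) were chosen with earlier results of these data known. All 42 members were matched by the name table, which names 32464 of 49315 genes. Alternatives were TMM and DESeq2 factors, a pseudocount of 0.1, other filters, other totals, thinning to the lowest total and omission of cluster 5. Calls were run on counts simulated with counting error alone and planted 4-fold changes. That setting holds no differences in makeup between libraries or between animals, so it does not replace replicates. Scaling factors came from edgeR 4.0.16 and DESeq2 1.42.0 under R 4.3.3. Figures were drawn by matplotlib 3.10.9, and other steps used scipy 1.17.1, pandas 2.3.3, numpy 2.4.6 and Python 3.11.15.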

Additional observations from a re-analysis of the deposited data

How the results depend on the processing

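No paired analysis was possible because no population was sequenced more than once, and for the same reason no replicate could be left out. Of 434 values recomputed under the alternatives, 333 stayed the same and the others moved. The same meant within 1.5 times the reported count or percent of all genes, or within the counting interval of the reported share. The 333 include the spreads of 13 chain ratios without division by length, which cannot move because length cancels in them. With TMM factors, 11 members were lower in cluster 5, 5 higher in cluster 7, 0 higher in the input and 28 lower in the input. With DESeq2 factors, the members were 1 higher (Col1a1), against 7.48% of all genes, and 10 lower in cluster 5, 4 higher in cluster 7, and 0 higher and 28 lower in the input. In totals without Rn18s-rs5, mmu-mir-689-2 and Lars2, 2 members were higher in cluster 3 against 2.97% of all genes, 5 lower in cluster 4 against 1.79%, and 9 lower in cluster 5. The count of members higher in the input was 2 with a pseudocount of 0.1, against 49.1% of all genes, 4 without the RPKM filter, against 23.9%, 0 with a filter of 5 RPKM, against 31.2%, and 0 with a filter on the sorted libraries only, against 15.6%, an alternative chosen after seeing the data. Omission of the cluster 5 library kept each other count of members within 1.5 times, but 6 machinery genes were lower in cluster 2 against 3, where 6.68% of all genes were lower against 4.73%. The counts of members were also within 1.5 times under thinning to the lowest total and thresholds of 1 and 5 for the number of members above 2 RPKM. TMM factors shifted the log2 scale by 0.44 in the library of cluster 5 and by 0.37, -0.14 and -0.68 in those of cluster 6, cluster 1 and the input.

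Shares of collagen counts rose by construction when loci were left out of the total. Without Rn18s-rs5, mmu-mir-689-2 and Lars2 they were 11.2%, 15.1%, 14.4%, 10.005%, 10.97%, 28.5% and 9.07% in clusters 1 to 7, in that order, so that cluster 2 moved above cluster 3. Without haemoglobin and mitochondrially encoded genes as well they were 11.5%, 15.4%, 14.7%, 10.1%, 12.6%, 28.6% and 9.18% in clusters 1 to 7 and 3.04% in the input. With TMM or DESeq2 factors the highest library changed for 8 of 34 members and the lowest for 5 of 34. Beside the counts of members, the percent of all genes lower in cluster 5 was 4.54 with TMM factors, 3.57 with DESeq2 factors and 24.5 with a pseudocount of 0.1, where it was 18.2 in cluster 6. Machinery genes lower in cluster 5 were 7 with TMM and 6 with DESeq2 factors, and those lower in the input 26 and 24. Depth limits the members with few counts, chiefly Col19a1, Col17a1 and Col28a1.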

Other observations

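Proteins that carry a collagen-like repeat outside the 42 collagen genes were listed as 34 genes, of which 24 passed 2 RPKM in a sorted library and 23 differed by more than 2-fold between highest and lowest. Their levels summed to 566, 623, 813, 743, 386, 886 and 820.4 RPKM in clusters 1 to 7 and 547 RPKM in the input. Cthrc1, a secreted protein of bone and healing vessels, was the most abundant at 49.99, 112, 213, 61.9, 112, 222 and 101 RPKM and 21.2 RPKM in the input, highest in clusters 6 and 3 as was type I collagen. C1qtnf3, also called cartonectin, was at 28.6, 198, 28.6, 31.7, 10.8, 174 and 51.4 RPKM and 24.9 RPKM in the input, highest in clusters 2 and 6. Emilin1 was at 42.3, 64.6, 33.8, 77.5, 23.3, 103 and 55.9 RPKM, Colec12 at 73.7, 37.7, 76.8, 111, 37.2, 74.2 and 133 RPKM, Scara3 at 83.4, 39.6, 149.9, 144, 33.6, 116 and 124 RPKM and C1qtnf7 at 9.26, 1.36, 6.28, 6.46, 1.10, 1.49 and 6.66 RPKM, each lowest in cluster 5 by total counts. Without Rn18s-rs5, mmu-mir-689-2 and Lars2 in the total, cluster 5 would be the lowest sorted library in none of these genes. Scara5, a scavenger receptor for ferritin, was at 38.8, 3.62, 57.3, 38.6, 7.08, 1.13 and 37.3 RPKM and was lowest in clusters 6 and 2, and C1qtnf2 was at 54.5, 22.8, 27.3, 71.4, 19.3, 5.53 and 48.4 RPKM, lowest in cluster 6.

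Adipoq, the gene of adiponectin, was at 3.32, 1.66, 3.63, 29.6, 6.77, 0.457 and 4.38 RPKM and 6.5003 RPKM in the input, so that cluster 4 stood above the rest. Emilin2 was at 34.6, 6.37, 76.04, 18.3, 5.22, 10.03 and 34.9 RPKM, highest in cluster 3, and Colec10 was above 2 RPKM only in cluster 3, with 3.83 RPKM. The complement genes C1qa, C1qb and C1qc, which macrophages express, were highest in cluster 7 with 7.001, 16.01 and 6.14 RPKM. Fcnb, a ficolin of neutrophil precursors, was at 24.3, 31.4, 34.7, 43.6, 48.4, 78.8 and 100.4 RPKM and 138 RPKM in the input. The collagen genes Col6a4 and Col26a1, which were on this list, ranged from 0.00353 to 0.0370 and from 0.0271 to 0.873 RPKM. C1qtnf5 was listed at 0 in each library. Each value comes from 1 library.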
